A study of Mus musculus with 11 samples.

Results

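The comparison described here is that of mouse cells in high glucose, with or without added Hsp70, against cells in normal glucose. In each of 3 sets of deposited files the mean of the high glucose library and the high glucose with Hsp70 library was set against the normal glucose library of the same set, which uses 9 of the 11 libraries of the series, 6 in high glucose and 3 in normal glucose. The other 2 libraries form set 2, which has no normal glucose library. The cells are labelled mouse cavernous endothelial cells, taken from corpus cavernosum, the erectile tissue of the penis. They were grown in M199 medium with 20% fetal bovine serum and heparin, and were treated for 5 days with normal glucose, high glucose, or high glucose plus Hsp70, a chaperone protein. The labels give no glucose concentration, no form or dose of Hsp70, and no strain, age or genotype of the mice. The series title concerns cystathionine gamma-lyase and the regeneration of penile vessels and nerves driven by Hsp70. Messenger RNA was read by stranded RNA sequencing. The test covered the 18248 genes that reached a normalized count of 1 in 3 or more of the 11 libraries. Every level given is log2(normalized count + 1). Every difference is high minus normal glucose on that log2 scale, averaged over the 3 sets. The errors (SE) and p-values come from limma, a linear model fitted over all genes, with the file set as a block and 3 group means. The comparison of the glucose difference between sets used another limma model, given where it is described. No label says that the libraries came from separate cultures or animals, so the p-values measure the spread between these libraries only. In such bulk samples, fewer cells of a type and less RNA per cell cannot be told apart.

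The normalized counts of the 9 libraries summed to 24.8 to 27.8 M, with 0.638% to 4.17% of each sum on Rn45s, a ribosomal RNA gene. The sets were unlike in cell markers. Pecam1, the endothelial adhesion protein CD31, stood at 8.86 to 9.07 in set 3 and at 2.68 to 4.51 in sets 4 and 5. The endothelial genes Tie1 and Cldn5 stood at 0.13 to 2.33 and at 0.01 to 0.24 in sets 4 and 5. The fibroblast genes Dcn, Col1a1 and Pdgfra stood at 14.20 or above in all 9 libraries. The endothelial label is thus not borne out by Pecam1, Tie1 and Cldn5 in sets 4 and 5. Other endothelial genes were mixed there. Cdh5 stood at 5.68 to 6.79, against 9.01 to 9.52 in set 3, and Flt1 at 6.35 to 7.73, while Kdr stood at 2.42 to 4.05 and Vwf at 1.15 to 3.39. The macrophage marker Adgre1 stood at 9.14 to 9.52 in set 3 and at 3.98 or below in the others. Of the 20 endothelial markers, 20 were measured and their summed level was 9.43 to 11.44 in normal glucose and 9.07 to 11.47 in high glucose. These ranges reflect the sets. Within sets 3, 4 and 5 the summed level was 11.44, 9.43 and 9.54 in normal glucose. The mean of both high glucose arms was 11.47, 9.22 and 9.17. The Hsp70 library of set 4 stood apart from its set: after the group means were taken out it correlated at 0.135 with the high glucose library and at 0.0590 with the normal glucose library of set 4, against 0.641 and 0.433 in set 3.

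Cells sense glucose in part through the transcription factors ChREBP (gene Mlxipl) and MondoA (Mlxip), which pair with Mlx, bind carbohydrate response elements made of a spaced pair of E-box-like sequences, and drive Txnip and Arrdc4, arrestin-domain proteins that curb glucose uptake. Inducible Hsp70, made from the twin genes Hspa1a and Hspa1b, is the classic target of heat shock factor HSF1, which binds repeats of GAA and its reverse complement TTC. Bhlhe40 is a transcriptional repressor that binds E-boxes and belongs both to the circadian clock and to the response to low oxygen.

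Shown first are the promoter sequences of the glucose-responsive gene and of the Hsp70 pair, 250 bases up to the start site, 5′ to 3′, from RefSeq (GRCm38.p6). For Txnip (chr3:96557707-96557956, plus strand) the capitals mark the spaced pair of E-box-like sequences, which begins at position -85 counted from the start site. For Hspa1b (chr17:34959239-34959488, minus strand) and Hspa1a (chr17:34972157-34972406, minus strand) they mark a pair of heat shock units that begins at position -104.
Txnip: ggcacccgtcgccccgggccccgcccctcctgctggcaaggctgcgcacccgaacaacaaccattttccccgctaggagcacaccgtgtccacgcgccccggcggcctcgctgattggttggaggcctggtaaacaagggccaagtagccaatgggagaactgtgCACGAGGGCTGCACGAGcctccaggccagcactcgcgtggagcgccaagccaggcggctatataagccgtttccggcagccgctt
Hspa1b: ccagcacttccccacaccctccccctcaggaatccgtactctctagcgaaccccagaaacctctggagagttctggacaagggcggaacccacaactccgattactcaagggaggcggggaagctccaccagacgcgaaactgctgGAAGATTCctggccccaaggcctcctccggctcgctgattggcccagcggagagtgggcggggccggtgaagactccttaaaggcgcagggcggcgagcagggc
Hspa1a: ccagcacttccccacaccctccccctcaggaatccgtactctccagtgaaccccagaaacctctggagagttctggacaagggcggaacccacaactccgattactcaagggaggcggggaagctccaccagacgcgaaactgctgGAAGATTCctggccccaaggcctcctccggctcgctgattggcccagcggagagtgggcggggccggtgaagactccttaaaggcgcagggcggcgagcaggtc
The pattern searched in the first, CACGNG and again CACGNG after a gap of 5 bases, on either strand, was found in 16 of 32851 promoter windows of 300 bases (0.0487%). The heat shock pattern GAANNTTC, which reads the same on both strands, was found in 7.86% of them. A longer heat shock pattern of 3 units was also searched. It was found in 0.603% of the windows, but not in those of Hspa1b and Hspa1a. The promoters of Hspa1b and Hspa1a were identical at 247 of the 250 bases. A match is a description of the letters, not a site shown to be bound. Bhlhe40 is not in the promoter table.

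Over all 18248 genes limma called 0 at an adjusted p under 0.05 (0%), and the lowest adjusted p was 0.524. At an unadjusted p under 0.05 there were 665 genes (3.64%), of which 273 were higher (1.5%) and 392 lower (2.15%) in high glucose. All 6 within-set differences were above 0 in 478 genes (2.62%) and below 0 in 665 (3.64%). The 6 high glucose libraries all lay above the 3 normal glucose libraries, sets set aside, in 77 genes (0.422%) and all below in 122 (0.669%). The difference was above 0 in 49.7% of all genes and below 0 in 50.3%, with a median SE of 0.199. No gene named below passed the adjusted test, so the values that follow are differences and not calls. Without the Hsp70 library of set 4 the number at an unadjusted p under 0.05 was 2128 (1089 higher and 1039 lower), with a median SE of 0.156. The number called stayed 0, with a lowest adjusted p of 0.0785. List counts given below for the main comparison are to be read against the 1.5% of all genes higher and 2.15% lower. Those without the Hsp70 library of set 4 are to be read against these 1089 and 1039. Those without set 3 are to be read against 267 higher and 344 lower among all genes.

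**Figure D1:**
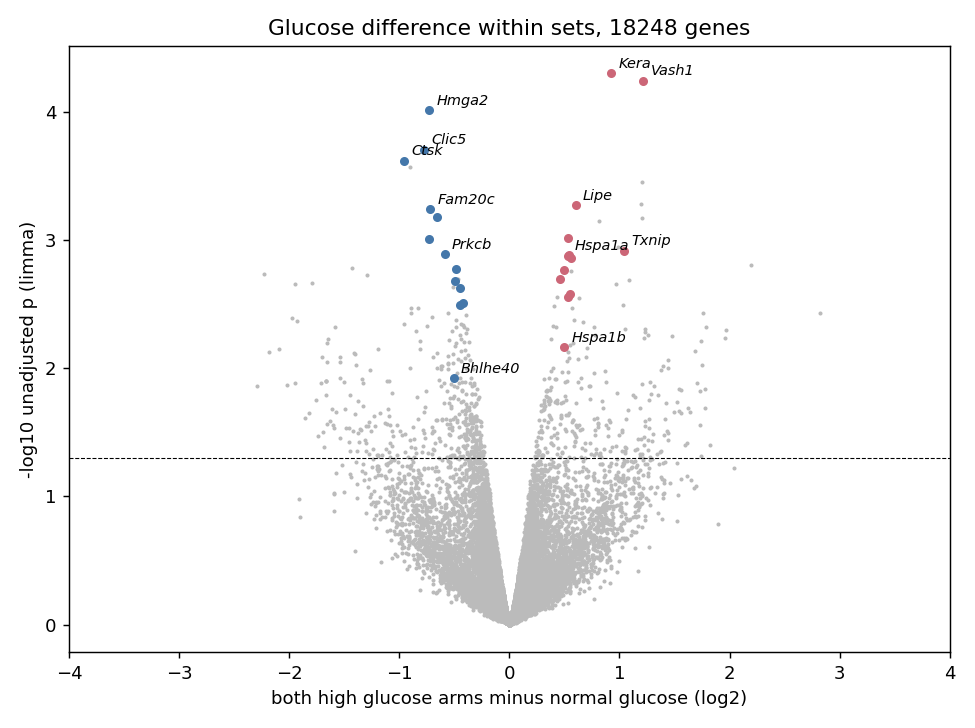
Each point is 1 of 18248 genes: the horizontal axis is the log2 difference of both high glucose arms minus normal glucose and the vertical axis is the −log10 unadjusted p from limma. Coloured points are the 24 genes named by rule plus Hspa1b and Bhlhe40, and the dashed line is an unadjusted p of 0.05, above which 665 genes lie.

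Txnip, which binds thioredoxin and limits glucose uptake, was 1.04 higher in high glucose (SE 0.209, 95% interval 0.56 to 1.53), 2.06 times the normal level. In set 3 it stood at 10.02 in normal glucose, 11.80 in high glucose and 11.72 with Hsp70. In set 4 the levels were 11.23, 11.94 and 11.61, and in set 5 they were 10.89, 11.94 and 11.54. All 6 high glucose libraries lay above all 3 normal glucose libraries, and the high ones lay close together while the normal ones ranged over more than 1 log2 unit. By limma the unadjusted p was 0.00121 and the adjusted p 1.00. In a two-sided exact permutation of which library of each set is the control, the 27 arrangements gave p = 0.0370, the smallest they can give. Txnip, Hspa1b and Bhlhe40 were chosen with earlier results of these data known. The permutation values of these genes therefore describe the order of the libraries and are no independent test. Under 28 alternative treatments of the data the difference ran from 0.69 to 1.29; it was 0.69 without set 3, whose normal glucose library held the lowest level. Txnip (chromosome 3, 96557957 to 96561883, plus strand, GRCm38) is overlapped on the opposite strand by Gm15441, which gave a difference of 1.09 (SE 0.240). The sources used here do not say which strand was counted, so reads of these genes cannot be told apart.

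**Figure D2:**
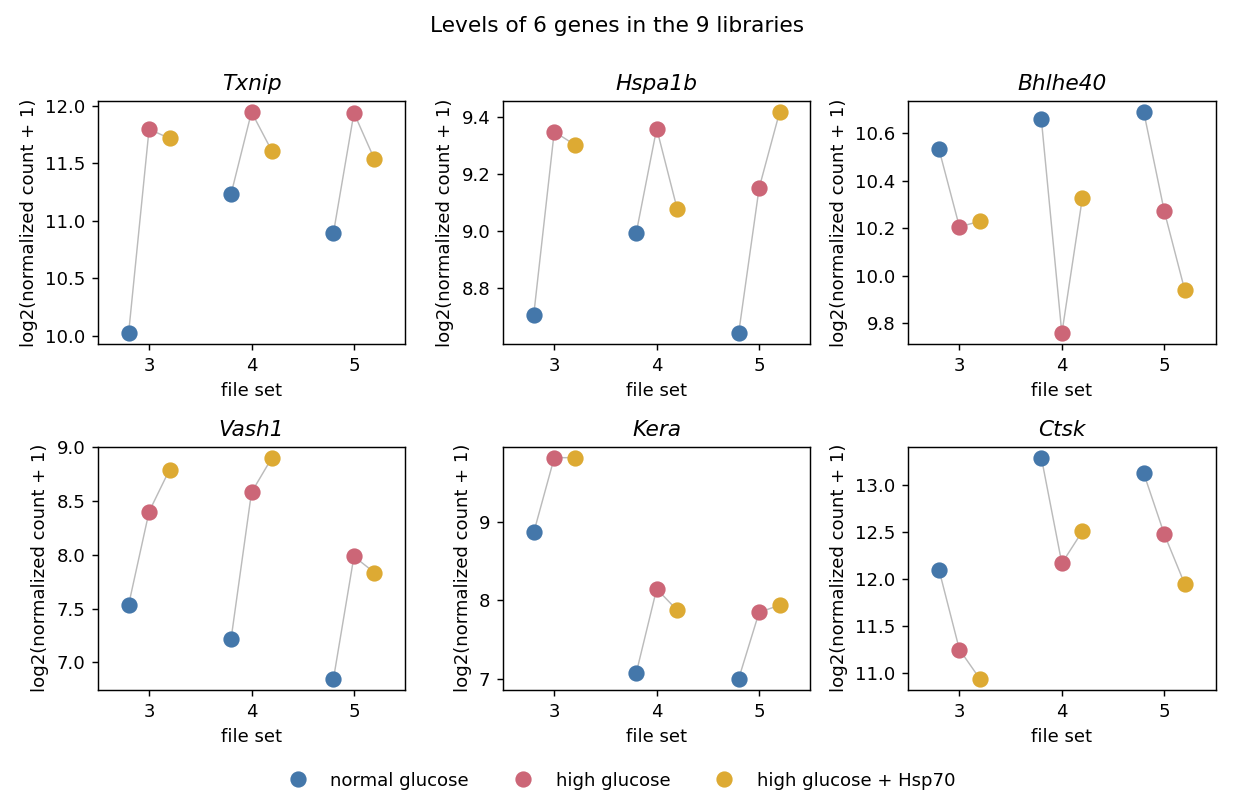
Levels, as log2(normalized count + 1), of 6 genes in the 9 libraries, by file set on the horizontal axis, with grey lines joining the libraries of a set. In each set of the Txnip, Hspa1b, Vash1 and Kera panels both high glucose libraries lie above normal glucose, and in those of Bhlhe40 and Ctsk both lie below.

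The other genes of the glucose-sensing list did not share 1 direction. Of its 14 members, all measured, 2 were higher and 1 lower at an unadjusted p under 0.05 by limma, with a median of 0.03. Arrdc4, the closest relative of Txnip, was 0.38 higher (SE 0.113, unadjusted p = 0.0105, limma). It stood at 11.16, 11.48 and 11.82 in normal glucose (sets 3, 4 and 5) and at 11.73 to 12.08 in high glucose, so the groups overlapped through set 5. Mlxipl, which encodes ChREBP, was 0.89 lower than in normal glucose (difference -0.89, SE 0.218, unadjusted p = 0.00369, limma). It stood at 6.80, 6.86 and 6.95 in normal glucose and at 5.27 to 6.45 in high glucose, every high glucose library below every normal one. The partners Mlxip and Mlx gave 0.00 and -0.19 and the fructose kinase Khk 0.19. The ChREBP target Pklr, a pyruvate kinase, gave 0.03 with a wide error (SE 0.474). Its difference was 0.34, 0.28 and -0.53 in sets 3, 4 and 5. Without set 3 the list held 1 higher and 2 lower at that threshold and a median of -0.07, and without the Hsp70 library of set 4 it held 4 higher and 3 lower.

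The stress-inducible Hsp70 genes were higher in high glucose in every set. Hspa1b was 0.50 higher (SE 0.135, 95% interval 0.18 to 0.81, unadjusted p = 0.00688, adjusted p = 1.00, limma). In set 3 it stood at 8.71 in normal glucose, 9.35 in high glucose and 9.30 with Hsp70. In set 4 the levels were 8.99, 9.36 and 9.08, and in set 5 they were 8.64, 9.15 and 9.42. All 6 high glucose libraries lay above the 3 normal ones, and the narrowest gap was 0.08, in set 4 with Hsp70. The two-sided exact permutation over 27 arrangements gave p = 0.0370, again the smallest possible and again a description for a gene so chosen. Hspa1a was 0.53 higher (SE 0.108, unadjusted p = 0.00133, limma), at 8.28, 8.52 and 8.37 in normal glucose and 8.86 to 8.99 in high glucose, with no overlap. The added protein was in 3 of these 6 libraries, and the difference between the Hsp70 and the high glucose libraries was -0.02 for Hspa1b and 0.00 for Hspa1a. The genes lie side by side on chromosome 17 (34956436 to 34959238 and 34969190 to 34972156, minus strand) and are near-identical, and the sources used here do not say how a read that fits both was counted, so their values are not independent.

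The other chaperones were mixed. Of 30 heat shock chaperone genes, 30 measured, the Hsp70 pair were the only 2 at an unadjusted p under 0.05 by limma, 19 were above 0, and the median was 0.02. Hspa1l, the testis-type neighbour of the pair, gave 0.52 (SE 0.263) and Hspa4l, an Hsp110-type chaperone, 0.47 (SE 0.255). The HSF1 targets Dnajb1, Hsph1 and Hspb1 gave -0.01, 0.14 and -0.13, the constitutive Hspa8 0.02, and Hsf1 itself 0.00. Without the Hsp70 library of set 4 the list held 6 members higher and 1 lower at that threshold, and without set 3 it held 1 higher.

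Bhlhe40 was lower in high glucose in every set, with a difference of -0.51 (SE 0.154, 95% interval -0.86 to -0.15, unadjusted p = 0.0119, adjusted p = 1.00, limma). In set 3 it stood at 10.53 in normal glucose, 10.21 in high glucose and 10.23 with Hsp70. In set 4 the levels were 10.66, 9.76 and 10.33, and in set 5 they were 10.69, 10.27 and 9.94. All 6 high glucose libraries lay below the 3 normal ones, which lay close together. The two-sided exact permutation over 27 arrangements gave p = 0.0370, the smallest possible, which is likewise a description and no independent test. Bhlhe40 (chromosome 6, 108660629 to 108666925, plus strand) is overlapped on the opposite strand by 0610040F04Rik.

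The lists that hold Bhlhe40 were mixed. Its paralogue Bhlhe41, the other repressor of the pair, gave -0.55 (SE 0.250, unadjusted p = 0.0593, limma), with all 6 within-set differences below 0. Of 19 clock genes, 1 was higher and 1 lower at an unadjusted p under 0.05 by limma, with a median of 0.09: Hlf, an output regulator of the clock, gave 0.65 (SE 0.279), and the period gene Per2 gave 0.28 (SE 0.147), short of that threshold. Of 31 hypoxia response genes, 2 were higher and 2 lower, with a median of -0.03. Slc2a1, the glucose transporter GLUT1, gave -0.38 (SE 0.131), with all 6 within-set differences below 0. Mxi1, a partner of Max that opposes Myc, gave 0.32 (SE 0.0966), and Pdk3, a pyruvate dehydrogenase kinase, 0.26 (SE 0.112). Without set 3 the clock list held 0 higher and 1 lower and the hypoxia list 0 higher and 3 lower. They held 3 and 2, and 3 and 5, when the Hsp70 library of set 4 was left out.

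The 24 genes shown by the naming rule are the 12 on each side with the smallest unadjusted p among well-expressed genes whose 6 within-set differences share a sign. These values chose them, so they are a description and no test. On the higher side Kera had the smallest p (0.93, SE 0.114, unadjusted p = 5.03e-05, limma); it encodes keratocan, a small leucine-rich matrix proteoglycan best known from the cornea. Kera stood at 8.86, 7.08 and 7.00 in normal glucose (sets 3, 4 and 5), at 9.81, 8.15 and 7.85 in high glucose and at 9.82, 7.88 and 7.94 with Hsp70. Its difference was 0.95, 0.94 and 0.89 in sets 3, 4 and 5, nearly the same in each, while its level lay higher in set 3. Vash1, which encodes the angiogenesis inhibitor and tubulin carboxypeptidase vasohibin-1, had the largest difference of the 24 (1.22, SE 0.153, unadjusted p = 5.74e-05, limma), 2.33 times the normal level. Vash1 stood at 7.53, 7.22 and 6.85 in normal glucose, at 8.40, 8.58 and 7.99 in high glucose and at 8.79, 8.90 and 7.84 with Hsp70, with no overlap between the conditions.

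The rest of the higher side was of varied function. Angptl7, a secreted angiopoietin-like protein, gave 0.50 (SE 0.107) at levels of 12.54 to 14.55. Sfrp2, a secreted modulator of Wnt signalling, gave 0.56 (SE 0.114), and the sushi-repeat gene Srpx gave 0.46 (SE 0.101). Tnfsf13b, the B cell survival cytokine BAFF, gave 0.53 (SE 0.103). Ackr4, a scavenger receptor for chemokines, gave 0.55 (SE 0.127), and Tmem100, a membrane protein induced by BMP signalling in endothelium, 0.53 (SE 0.122). Metabolic genes were Lipe, the hormone-sensitive lipase, at 0.60 (SE 0.106) and Ppp1r3c, which targets protein phosphatase 1 to glycogen, at 0.55 (SE 0.111). Txnip and Hspa1a complete the 12.

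On the lower side Hmga2, an architectural chromatin protein of growing mesenchymal cells, had the smallest p (-0.73, SE 0.0988, unadjusted p = 9.74e-05, limma). Hmga2 stood at 11.35, 12.55 and 13.01 in normal glucose, at 10.63, 11.95 and 12.40 in high glucose and at 10.59, 11.65 and 12.25 with Hsp70, so the conditions overlapped across sets while both high glucose libraries lay below the control in each set. Ctsk, the collagen-cleaving protease cathepsin K, had the largest difference on this side (-0.96, SE 0.149). Ctsk stood at 12.10, 13.29 and 13.12 in normal glucose, at 11.25, 12.17 and 12.48 in high glucose and at 10.94, 12.51 and 11.95 with Hsp70. Normal glucose was 1.94 times high glucose for this gene, and the set 3 control lay below 3 of the 6 high glucose libraries.

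The other genes of the lower side were of varied function. Clic5, a chloride intracellular channel family protein, gave -0.78 (SE 0.117), and the voltage-gated proton channel Hvcn1 gave -0.66 (SE 0.121). Fam20c, the Golgi kinase of secreted proteins, gave -0.72 (SE 0.128). Prkcb, the protein kinase C isoform much studied in diabetic vessels, gave -0.59 (SE 0.120). Nkain1, which interacts with the sodium pump, gave -0.73 (SE 0.142), the NAD-synthesizing enzyme Nmnat2 -0.49 (SE 0.104) and the monocarboxylate transporter family member Slc16a9 -0.45 (SE 0.108). Tmem140 gave -0.50 (SE 0.110) and the actin-binding kelch protein Enc1 -0.45 (SE 0.101). Mcm2, a subunit of the replicative helicase, gave -0.42 (SE 0.0990) and stood at 8.97, 8.95 and 9.23 in normal glucose against 8.55 to 8.76 in high glucose, with no overlap.

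**Figure D3:**
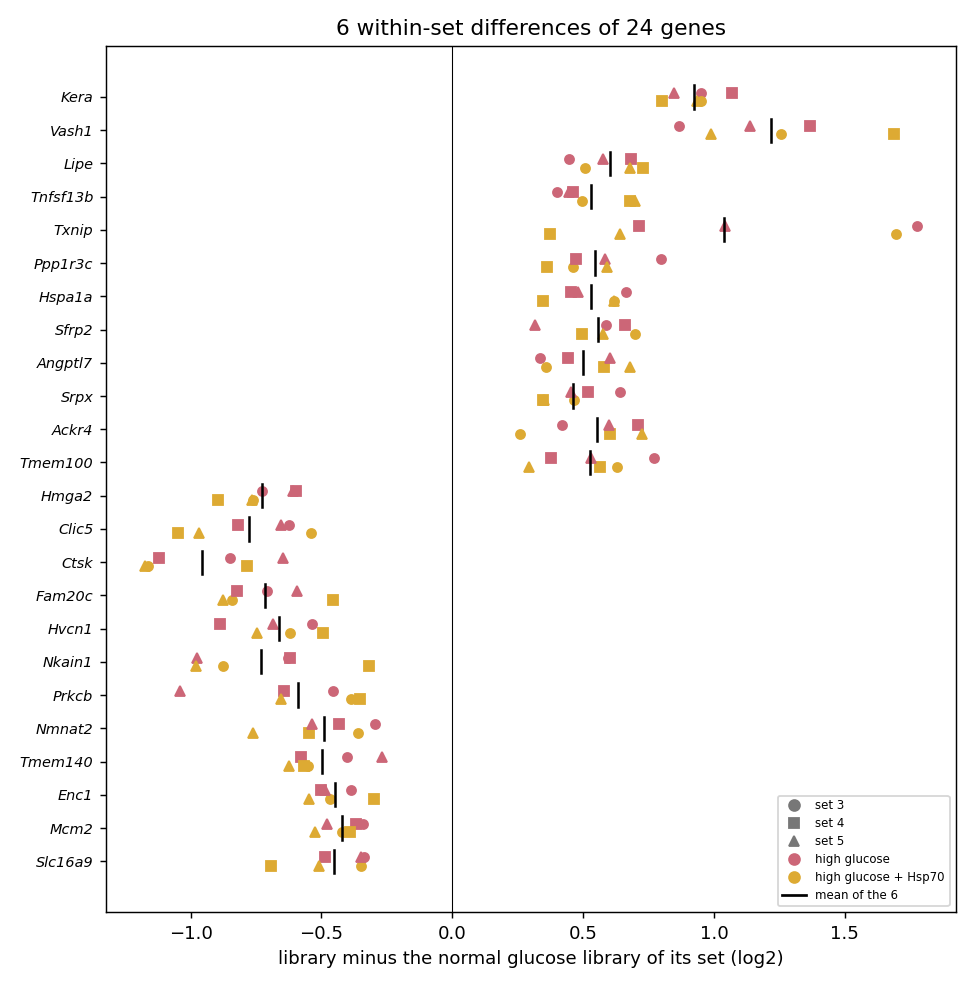
The 6 within-set log2 differences of 24 genes, each a high glucose library minus the normal glucose library of its set: colour gives the arm, shape the set and the black bar the mean. Genes were chosen because all 6 share a sign, and Txnip shows the set 3 differences (1.78 and 1.70) apart from the other 4 (0.37 to 1.04).

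The named genes also differed in level between sets. The normal glucose library of set 3 lay above both other normal glucose libraries in 10 of the 12 higher-side genes and below both in 11 of the 12 lower-side genes, whereas over all genes tested it lay above both in 39.5% and below both in 38.2%. Among all genes at an unadjusted p under 0.05 it lay above both in 52.4% of the 273 higher and below both in 55.1% of the 392 lower. The part of this in the differences was not tested. The naming rule asks for within-set differences that share a sign, so leaving out a set cannot reverse the sign of these genes. The rule also takes the smallest p, which favours a p that stays low. Without set 3, 24 of the 24 thus kept their sign. An unadjusted p under 0.05 by limma was kept by 23, the exception being Tmem100 (0.44, unadjusted p = 0.0509). Without set 5, 20 of the 24 kept such a p, and those that did not were Angptl7, Nmnat2, Enc1 and Mcm2. Most of the 24 rest on the comparison within sets. With no block 7 of the 24 had an unadjusted p under 0.05 by limma (Txnip, Vash1, Hspa1a, Ctsk, Fam20c, Hvcn1 and Mcm2), and Kera had 0.173. By the numbers in the sample titles in place of the file set the differences were larger for many of them, such as 1.87 for Kera and -1.57 for Hmga2, and were 0.70 for Txnip. Those numbers set high glucose libraries of set 3 against the set 4 control and those of set 4 against the set 5 control. The set 3 control has no partner there. These differences thus also hold the level differences between sets.

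The high glucose and Hsp70 arms gave like values for these genes, which the naming rule favours since it asks for 1 sign in all 6 libraries. The limma difference of Hsp70 minus high glucose was called in 0 of 18248 genes (0%), with 376 at an unadjusted p under 0.05 (2.06%). Among the 24 its smallest unadjusted p by limma was 0.11, for Prkcb (0.25). For Txnip it was -0.27 (unadjusted p = 0.290), and for Vash1 0.19 (unadjusted p = 0.321). By arm, high glucose alone gave 1.18 for Txnip and the Hsp70 arm 0.90, both against the same 3 control libraries.

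Lists of metabolic genes had medians near that of all genes. Of 32 genes of glycolysis and the pentose phosphate pathway, 1 was higher and 2 lower at an unadjusted p under 0.05 by limma, with a median of -0.02: Pdk2, a pyruvate dehydrogenase kinase, gave 0.36, Slc2a1 -0.38 and the enolase Eno2 -0.33. Of 15 genes of the polyol, hexosamine and glyoxalase pathways 0 were higher and 1, Prkcb, was lower, and aldose reductase (Akr1b3), the entry to the polyol pathway, gave 0.28 (SE 0.183) with all 6 within-set differences above 0. Of 31 sterol and fatty acid synthesis genes 1 was higher and 1 lower. Acss2, which makes acetyl-CoA from acetate, gave 0.47 (SE 0.165). Of 40 respiratory chain genes 0 passed that threshold in either direction, with a median of -0.05. Without the Hsp70 library of set 4 the respiratory chain list held 0 higher and 7 lower (median -0.11), glycolysis 1 higher and 7 lower, and the sterol list 2 higher and 3 lower. Without set 3 the sterol list held 1 higher and 0 lower, and glycolysis 1 of each.

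In the lipid droplet list 3 were higher and 1 lower at that threshold, of 20 tested of 21 listed (median 0.03). Over all genes 1.5% were higher and 2.15% lower. Besides Lipe, the droplet coat gene Plin1 gave 0.38 (SE 0.151) and the droplet fusion gene Cidec 1.73 (SE 0.639). Cidec was low, at 1.37, 3.07 and 0.22 in normal glucose and 2.24 to 4.21 in high glucose, with overlap. Plin4, another coat protein, gave -0.48 (SE 0.121), at 10.44 to 10.80 in normal glucose and 9.96 to 10.34 in high glucose, with no overlap. Without set 3 the list held 2 higher and 0 lower, and without the Hsp70 library of set 4 it held 3 higher and 4 lower.

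Among stress lists, ATF4 targets had the lowest median of the 29 lists, -0.21, with 27 of 30 members below 0 but 0 at an unadjusted p under 0.05 by limma and 0 with all 6 within-set differences of 1 sign (6.26% of all genes had them). ATF4 is the factor that turns on amino acid synthesis and import under stress. Its own gene Atf4 gave -0.47 (SE 0.250), the serine synthesis enzyme Phgdh -0.51 (SE 0.244) and the stress factor Ddit3 (CHOP) -0.44 (SE 0.196). The median was -0.18, 0.05 and -0.44 in sets 3, 4 and 5. The summed level of the list was 15.37, 15.34 and 15.83 in normal glucose (sets 3, 4 and 5). In high glucose the mean of both arms was 15.27, 15.36 and 15.31, and the set 5 control was the highest of the 9 libraries. The count also depended on the Hsp70 library of set 4, where Ddit3 stood at 11.25, above all other 8. Without that library 15 of the 30 members were lower at an unadjusted p under 0.05 by limma, with a median of -0.30. In that setting 1039 of all 18248 genes were lower. Of 22 genes for endoplasmic reticulum chaperones and the unfolded protein response 0 passed that threshold (median -0.04, Xbp1 0.25).

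Of 26 genes of oxidative stress and NRF2, 1 was higher and 1 lower at an unadjusted p under 0.05 by limma, with a median of -0.05. Sod3, the secreted superoxide dismutase, gave 0.38 (SE 0.100), with all 6 within-set differences above 0. Cybb, the NADPH oxidase NOX2 of phagocytes, gave -0.44 (SE 0.121), with all 6 below 0. Of 27 p53 and apoptosis genes 0 passed (median -0.04), and of 38 cell cycle and replication genes 0 were higher and 2 lower (median -0.09), namely Mcm2 and the origin-licensing factor Cdt1 (-0.54, SE 0.199). Of 26 immediate early genes 0 were higher and 2 lower (median -0.12): Egr1 gave -0.34 (SE 0.106) and Klf6 -0.30 (SE 0.0942), both with 6 of 6 differences below 0. Of 28 genes of NF-kB and leukocyte recruitment 1 was higher and 0 lower (median -0.08), the neutrophil chemokine Cxcl5 at 0.34 (SE 0.110), while Cxcl12 gave -0.26 (SE 0.118). With set 3 left out the counts higher and lower were 0 and 1 (NRF2), 0 and 1 (cell cycle), 0 and 2 (immediate early) and 0 and 1 (NF-kB). Without the Hsp70 library of set 4 they were 2 and 3, 1 and 3, 0 and 5, and 1 and 3, with 1 and 3 for p53.

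For the enzymes of hydrogen sulfide, on which the series title bears, differences were small against their errors. Cth, the cystathionine gamma-lyase, gave -0.07 (SE 0.113, 95% interval -0.33 to 0.19, limma), at 8.85, 8.11 and 8.88 in normal glucose and 8.12 to 8.75 in high glucose. Cbs, the cystathionine beta-synthase, gave 0.03 (SE 0.337), and Mpst, the third enzyme, 0.04 (SE 0.214). Of 18 genes of sulfide and sulfur amino acids 2 were higher and 0 lower at an unadjusted p under 0.05 by limma (median 0.06): Csad, of taurine synthesis, gave 0.29 (SE 0.0968) and Papss1, which activates sulfate, 0.24 (SE 0.0990). Without set 3 the list held 0 in either direction, and without the Hsp70 library of set 4 it held 4 higher and 2 lower.

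Vessel, nerve and matrix genes were described by 4 lists, to be read against 1.5% of all genes higher and 2.15% lower at an unadjusted p under 0.05. Of 27 angiogenic factors and receptors 0 were higher and 3 lower by limma (median -0.06). Vegfb, a ligand of the VEGF receptor Flt1, gave -0.50 (SE 0.157), Flt1 itself -0.65 (SE 0.237) and the co-receptor Nrp2 -0.28 (SE 0.102). Flt1 stood at 6.44, 7.39 and 7.73 in normal glucose and at 6.35 to 6.68 in high glucose, with no drop in set 3. Of 21 neurotrophic factors and receptors 0 were higher and 1 lower (median -0.08), Gdnf, a survival factor for neurons, at -0.38 (SE 0.139). Of 19 genes of nitric oxide and vascular tone 0 were higher and 1 lower (median -0.01), the inducible synthase Nos2 at -0.33 (SE 0.139). Of 32 collagen, matrix and TGF-beta genes 0 were higher and 3 lower (median -0.08). Among them the matrix protease Mmp11 gave -0.48 (SE 0.174) and Tgfb1 -0.28 (SE 0.116). With set 3 left out the neurotrophic list held 1 higher and 0 lower, the nitric oxide list 0 and 0, and the angiogenic and matrix lists 0 higher and 2 lower each. Leaving out the Hsp70 library of set 4 gave counts higher and lower of 1 and 4 (angiogenic), 0 and 4 (neurotrophic), 2 and 3 (nitric oxide) and 1 and 6 (matrix). In that setting 1089 of all 18248 genes were higher and 1039 lower.

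Counts of cell type markers are to be read against 1.5% of all genes higher and 2.15% lower at that threshold, an unadjusted p under 0.05. Of 20 endothelial markers 0 were higher and 1, Flt1, lower at an unadjusted p under 0.05 by limma (median -0.07). Of 14 fibroblast markers 1 was higher and 0 lower (median 0.10), the matrix proteoglycan Lum at 0.51 (SE 0.157); Lum, like Kera a small leucine-rich proteoglycan, stood at 12.56, 10.44 and 10.13 in normal glucose and at 10.60 to 12.80 in high glucose. The summed level of the fibroblast markers was 17.82 to 18.53 in normal glucose and 17.91 to 18.82 in high glucose. Of 7 pericyte markers measured of 8 listed 0 were higher and 1 lower (median 0.01), the surface proteoglycan Cspg4 at -0.52 (SE 0.116). Of 17 macrophage and leukocyte markers 1 was higher and 0 lower (median -0.11), Cd14 at 0.35 (SE 0.117), and their summed level was 9.54 to 12.52 in normal glucose and 9.52 to 12.65 in high glucose. Of 10 smooth muscle and 10 Schwann cell markers 0 passed in either direction, with medians of 0.10 and -0.05. Of 15 mitochondrial and nuclear RNAs 6 were measured, of which 0 passed. Without the Hsp70 library of set 4 the fibroblast list held 4 higher and 1 lower and the pericyte list 3 higher and 1 lower, and without set 3 the leukocyte list held 0 higher and 1 lower.

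**Figure D4:**
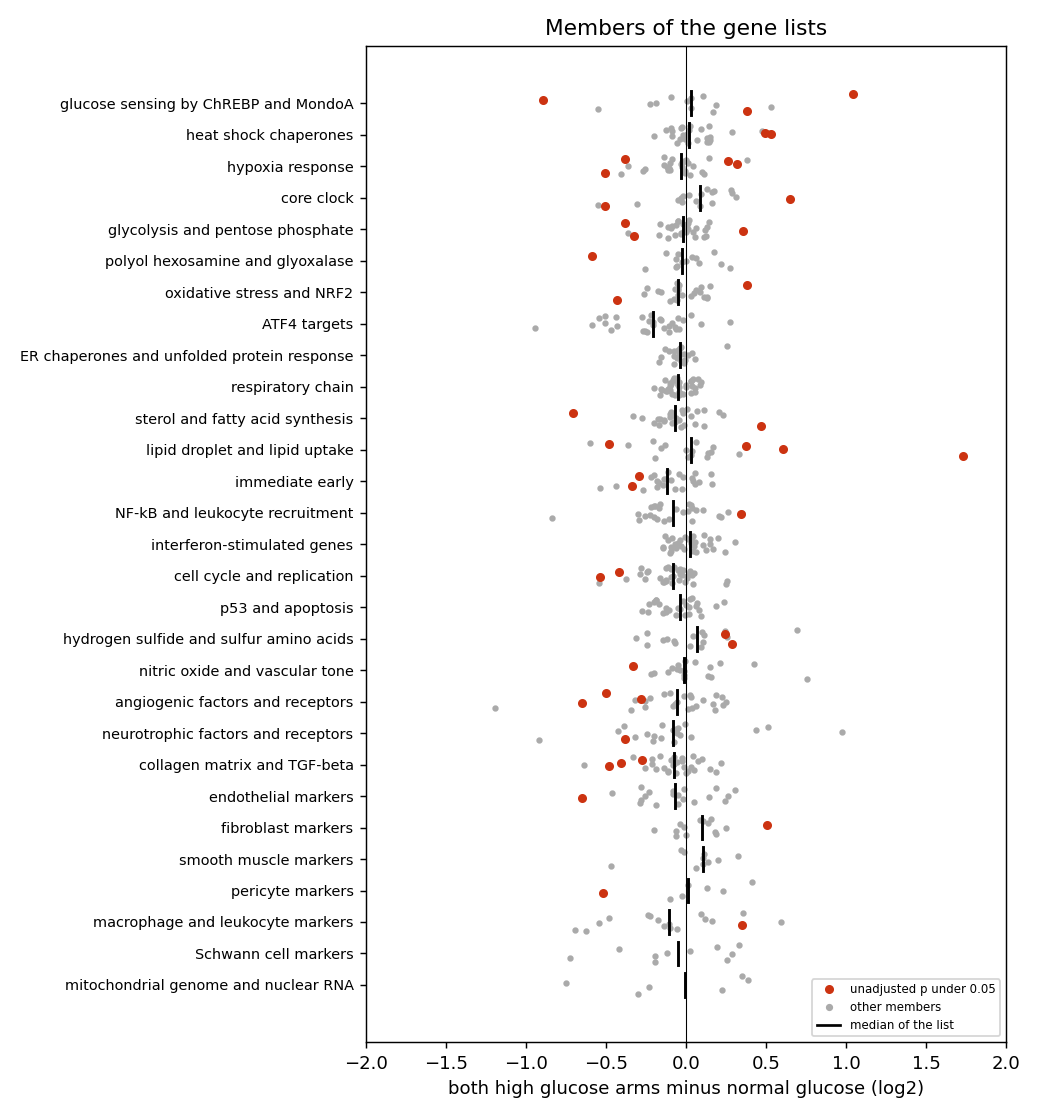
Members of the 29 gene lists by log2 difference, both high glucose arms minus normal glucose: 1 point per gene, red at an unadjusted p under 0.05 by limma, with a bar at the list median. Most medians lie near 0, and that of the ATF4 targets, at -0.21, lies lowest.

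The glucose difference was also compared between sets, as set 3 minus the mean of sets 4 and 5. This limma model held a mean and a glucose effect for each set, with the high glucose and Hsp70 libraries of a set as its repeats. Its errors and p-values therefore measure how far those libraries differ from each other. They hold no spread between normal glucose libraries. Limma called 0 of 18248 genes at an adjusted p under 0.05 (0%), with 1179 at an unadjusted p under 0.05 (6.46%). The smallest p was that of Saa4, a serum amyloid A lipoprotein, whose difference was -3.23 in set 3, -0.40 in set 4 and 0.68 in set 5 (set difference -3.37, SE 0.278, adjusted p = 0.0990, limma). Saa4 reached 14.61 in normal glucose in set 3, and its other 8 libraries lay between 9.34 and 11.38. The growth factor Fgf9 (-2.36, SE 0.390) and the lipid kinase Pik3c2b (-1.57, SE 0.260) had the same form, with the set 3 control highest of the 9 libraries. Lonrf3, a ubiquitin ligase family gene, gave 0.41 in set 3 and -1.23 and -1.28 in sets 4 and 5. Txnip itself gave 1.74, 0.54 and 0.84, a set difference of 1.04 (SE 0.300, unadjusted p = 0.0101, adjusted p = 0.630, limma).

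Interferon-stimulated genes went in opposite directions in the sets and had a pooled median of 0.02. Of 32 members, 0 were at an unadjusted p under 0.05 in the pooled comparison, and without set 3 there were 4, all higher. The median was -0.52 in set 3, 0.15 in set 4 and 0.28 in set 5, and 18 of the 32 had a lower glucose difference in set 3 at an unadjusted p under 0.05 by limma. Ifit1, an antiviral RNA-binding protein, gave -1.16, 0.22 and 0.50 in sets 3, 4 and 5, and the ubiquitin-like Isg15 gave -0.79, 0.40 and 0.71. Ifit1 stood at 12.86 to 12.98 in the 3 normal glucose libraries and at 11.66 and 11.78 in the high glucose libraries of set 3, against 13.20 to 13.49 in those of sets 4 and 5. Smooth muscle markers had medians of -0.62, 0.35 and 0.36 in sets 3, 4 and 5, with 6 of 10 lower in set 3 at that threshold, and cell cycle genes -0.29, 0.02 and 0.04, with 6 of 38. No interferon, smooth muscle or cell cycle member was higher in set 3 at that threshold. Over all genes 6.46% passed it in either direction. Each set holds 1 normal glucose library, so a set and its control library cannot be told apart, and the number called depended on 1 library: it was 2465 without the high glucose library of set 4, 15 without its Hsp70 library, and 0 without any of the other 4.

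**Figure D5:**
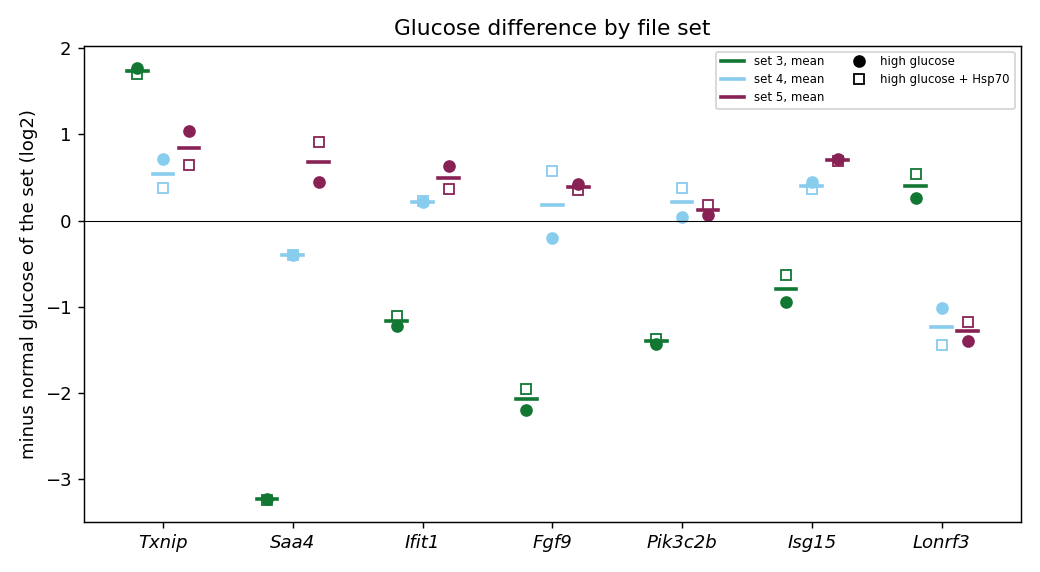
Within-set log2 differences from normal glucose for 7 genes, by file set (colour) and arm (filled and open symbols), with bars at the set mean. The set 3 difference of Txnip, at 1.74, lies above the others, those of Saa4, Ifit1, Fgf9, Pik3c2b and Isg15 lie below, and that of Lonrf3 lies above.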

How the data were processed

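Messenger RNA was measured in 11 libraries of mouse cavernous cells. Per the labels' protocols, Trizol was used for RNA and a stranded SMARTer kit for the libraries. The authors deposited 1 file of log2 values per library, read here as log2(normalized count + 1) from the values themselves. Tools listed by the authors, per the submitters' processing notes, were TopHat and edgeR with the build mm10, without versions. The sources used here do not give the normalization, the annotation, the strand counted, the treatment of multiply mapping reads or the read depth. Genes listed at 0 made up 11.8% of each library of sets 4 and 5, against 21.2% to 22.9% in set 3.

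Each file held 23282 genes, and 44 repeated symbols were dropped, the copy with the highest mean being kept. The filter left 18248 genes, of which 95.7% matched a GENCODE M21 name, the source of gene positions. Groups come from the labels and the sets from the names of the deposited files, which are the only source for them. The numbers in the sample titles pair the normal glucose libraries otherwise. After the group means were taken out, libraries of 1 set correlated at 0.0590 to 0.641 in sets 3 to 5, 8 of the 9 pairs above 0.1. The labels do not say what a set is. No library was a copy of another (smallest mean absolute log2 difference 0.330).

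The linear models were fitted in R 4.3.3 by limma 3.58.1, with a trended prior, robust variances and Benjamini-Hochberg adjustment at 0.05 over all genes tested. The pooled fit and the fit of the set difference were also run on simulated data, and the alternatives were not. The 3 marker genes were also compared by exact permutation within sets. Genes named are Txnip, Hspa1b and Bhlhe40, then up to 12 on each side past the adjusted threshold or, failing that, by smallest unadjusted p among genes above the median level, without predicted-gene names and with 6 differences of 1 sign; the 6 genes of smallest p for the set difference by the same rules; up to 4 members of each list by smallest p; and Cth, Cbs and Mpst. Other list members are named to show the list. Some genes that the rule names are not reported here. The members, the 29 lists and the naming rule were chosen with earlier results of these data known. Promoters of RefSeq (GRCm38.p6) were searched on both strands in Python 3.11.15, and figures were drawn with matplotlib 3.10.9. Alternatives were another block or none, other model forms, all 11 libraries, and other filters, scalings and pseudocounts. Further alternatives were single arms, sets or libraries left out, and sample weights.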

Additional observations from a re-analysis of the deposited data

Results flagged for a closer look

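Within the 6 high glucose libraries, 4 of the 139 named genes had 1 library farther from the rest than Dixon's 95% criterion for 6 values allows, a criterion that chance meets in about 1 in 20 groups. Atp5b, a subunit of ATP synthase, stood at 14.58 in the Hsp70 library of set 4, where the nearest other library was at 14.14. Tgfb1 stood at 10.07 in the same library, with the nearest at 9.63. Cbs stood at 3.46 in the high glucose library of set 5, with the nearest at 4.53. The RNA component Rmrp stood at 0.55 in the high glucose library of set 3, with the nearest at 2.81.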

How the results depend on the processing

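Of the 24 named genes none changed sign under the 28 alternatives, 1 of them (sample weights estimated gene by gene) and the list counts without set 3 or the Hsp70 library of set 4 being chosen after the data were seen. The naming rule had already asked for within-set differences that share a sign. Where a set, an arm or a library was left out, no sign could therefore reverse, and those alternatives do not test it. The replicate block mattered: without it 261 genes had an unadjusted p under 0.05 by limma (7 of the 24; 665 with the file set as block, 1446 with the title number), and limma called 0 in each of these. The title numbers pair the 2 high glucose arms as the file sets do and differ only for normal glucose. They set high glucose libraries against the normal glucose library of another set, so the count of 1446 also holds level differences between sets. Same-numbered normal and high glucose libraries correlated at -0.372 and 0.222, against 0.599, 0.347 and 0.353 in sets 3, 4 and 5. Libraries of sets 4 and 5 also correlated across sets, at up to 0.276, so these values tell sets 4 and 5 apart only weakly. Other counts at that threshold were 933 for the high glucose arm, 312 for the Hsp70 arm, 1352 without set 4, 238 without set 5 and 324 to 2128 with 1 library left out. The share on the higher side was 41.1%, and 50.9% by title number.

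Sample weights called 308 genes (99 higher), among them Txnip at 0.82 (adjusted p = 0.0261, limma; 0.0261 to 1.00 over its alternatives), Hspa1b at 0.60 (0.0256; 0.0256 to 1.00) and Bhlhe40 at -0.72 (0.0201; 0.0201 to 1.00). That estimate did not reach its convergence tolerance, and the gene by gene estimate called 17, none of these 3. Of the 24 named genes 23 were called with the first weights and 10 with the second (Angptl7, Clic5, Ctsk, Fam20c, Hmga2, Hvcn1, Kera, Lipe, Nkain1 and Vash1). Both estimates gave the Hsp70 library of set 4 the lowest weight (0.106 and 0.136). The set difference called 0 to 2465 genes with 1 library left out. Values near 0 changed sign. Cbs was -0.18 in the high glucose arm, -0.32 without set 3 and -0.0236 with gene by gene weights, and ran from -0.32 to 0.28 with 1 library left out. Mpst was -0.00648 in the high glucose arm, -0.20 without set 4 and -0.0193 without set 5, and ran from -0.20 to 0.34 with 1 library left out. Cth was 0.000539 without set 5 and ran from -0.16 to 0.000539 with 1 library left out. The read depth and the floor of the low values limit what can be said of low genes such as Cidec.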

Other observations

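Set 2 was used in the filter on low values and in an alternative fit of all 11 libraries. It entered no other comparison because it holds no normal glucose library. In its high glucose and Hsp70 libraries Txnip stood at 11.90 and 11.90, Hspa1b at 9.61 and 9.67, Hspa1a at 9.32 and 9.28 and Bhlhe40 at 10.11 and 9.90. For these 4 genes the values lay on the high glucose side of all 3 normal glucose libraries of the other sets. Kera stood at 6.78 and 6.15 in set 2, below all 3 normal glucose libraries of the other sets, and Ctsk at 13.28 and 13.92. Vash1 stood at 7.24 and 6.59, within or below the normal glucose range of 6.85 to 7.53. Cth, the cystathionine gamma-lyase, stood at 8.10 and 11.01, and the second value was the highest of the 11 libraries.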
